A study of Homo sapiens with 54 samples.

Results

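Replication-dependent histone genes encode the linker histone H1 and the core histones H2A, H2B, H3 and H4 that package newly made DNA. They were followed in the human cell line H4, which has a glioneuronal phenotype and whose name has no link to histone H4. Members were taken by name, as probe sets with a single gene symbol of the form H1-1 to H1-5, H2AC, H2BC, H3C or H4C with a number, leaving out pseudogenes, which gave 56 of the 18417 genes measured. H4C15 had the same values as H4C14 on every array, so the pair was counted once as H4C14, leaving 55 measurements. Of these, 38 lay above the level filter (the lowest 40% of genes by mean were left out) and were tested among 11050 genes: 4 of 5 for H1, 10 of 14 for H2A, 11 of 16 for H2B, 5 of 8 for H3 and 8 of 12 for H4. A further 12 histone genes, such as H2AC18, H2BC18 and H3C13, sat only on probe sets shared by several genes and were not used here. Of the 56 genes 48 are on chromosome 6, 7 on chromosome 1 and 1, H4C16, on chromosome 12.

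Cells received 1 of 9 small RNAs and were harvested 48 h later. The RNAs were the microRNAs miR-103 and miR-107, miR-16 and miR-195 (related by their 5′ ends), miR-107-mut2 and miR-107-mut1, which are altered forms of miR-107, the microRNA miR-320, miR-15b* (an antisense control, written miR-15b in sample titles) and a negative control RNA from Ambion, and the changes in the altered forms are not given in the sources used here. Total lysate RNA and RNA bound to Argonaute, immunoprecipitated (IP) with antibody 2A8, were measured on Affymetrix Human Gene 1.0 ST arrays, 3 biological replicates for each transfection and fraction and 54 arrays in all. All groups share the cell line and the transfection, and there were no untransfected cells among the samples used here.

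Messages of these genes accumulate in S phase and end in a stem-loop instead of a poly(A) tail. The stem-loop is bound by SLBP and cut with the help of the U7 small nuclear ribonucleoprotein, and NPAT drives transcription of the genes in histone locus bodies. Several genes, among them H1-2, H2AC6, H2BC5, H2BC12 and H2BC21, are also known to give polyadenylated messages. Argonaute proteins hold microRNAs, which pair with target messages mainly through their seed, bases 2 to 8.

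Values are log2 intensities, changes are log2 differences ± SE, and "called" means an adjusted p below 0.05 (limma, Benjamini-Hochberg over 11050 genes). Array means over all probe sets were 7.11 to 7.17 in lysates and 3.61 to 3.65 in the IP, so the fractions were fitted apart. Lysate replicate 2 of miR-103, of miR-16 and of miR-15b* and IP replicate 1 of miR-15b* stood apart from the other arrays of their fraction. In the control lysate 9 glial markers had means of 4.21 (S100B) to 12.54 (VIM) and 9 neuronal markers of 5.46 (NEFM) to 9.06 (SYT1), 6 of each list lying above the level filter. Of 5 haematopoietic markers CD68, a macrophage marker, was at 10.66 ± 0.12 (SD, n = 3 arrays) and above the filter, while CD34, HBB, CD3E and PTPRC, at 5.97, 5.86, 5.18 and 3.59, were below it by their mean over both fractions. Near-identical histone genes can share hybridization, so a value may hold signal of more than 1 gene.

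The mature microRNAs are shown because the comparisons are between molecules that share a seed and molecules that do not. Sequences are from RefSeq (GRCh38.p14), 5′ to 3′, with the seed in capitals. The entries for the human microRNAs were taken to stand for the transfected molecules.
hsa-miR-103a-3p: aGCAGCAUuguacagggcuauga
hsa-miR-107: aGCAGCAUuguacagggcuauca
hsa-miR-16-5p: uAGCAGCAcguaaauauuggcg
hsa-miR-195-5p: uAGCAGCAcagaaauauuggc
hsa-miR-15b-3p: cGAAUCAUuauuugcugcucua
miR-103 and miR-107 share the whole seed, as do miR-16 and miR-195. The pairs share a run of 6 bases of the seed with each other, but not at the same positions. The run is the first 6 bases of the seed of miR-103 and miR-107 and the last 6 of that of miR-16 and miR-195. The seed of miR-15b-3p, the strand named miR-15b*, shares at most 3 bases in a row with any of them.

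Histone promoters carry class-specific elements, and 4 members that lie at opposite ends of the response are shown, from 250 bases before to 50 after the start (RefSeq, GRCh38.p14, gene strand, 5′ to 3′). Capitals mark the H2B octamer ATTTGCAT, the TATA box TATAAA, the CCAAT box and the H1 element AAACACA on either strand, overlaps merged. H1-5 (chr6:27867539-27867838, minus strand) fell most of the H1 genes, H3C8 (chr6:26271364-26271663, minus strand) of the H3 genes and H2BC10 (chr6:26272681-26272980, plus strand) of the H2B genes, whereas H2BC12 (chr6:27146809-27147108, minus strand) had the smallest change of the tested members.
H1-5: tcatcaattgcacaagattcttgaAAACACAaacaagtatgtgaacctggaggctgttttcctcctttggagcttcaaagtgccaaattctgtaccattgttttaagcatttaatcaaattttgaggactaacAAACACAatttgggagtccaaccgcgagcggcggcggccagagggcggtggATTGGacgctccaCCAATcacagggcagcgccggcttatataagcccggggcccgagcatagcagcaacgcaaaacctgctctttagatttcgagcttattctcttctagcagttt
H3C8: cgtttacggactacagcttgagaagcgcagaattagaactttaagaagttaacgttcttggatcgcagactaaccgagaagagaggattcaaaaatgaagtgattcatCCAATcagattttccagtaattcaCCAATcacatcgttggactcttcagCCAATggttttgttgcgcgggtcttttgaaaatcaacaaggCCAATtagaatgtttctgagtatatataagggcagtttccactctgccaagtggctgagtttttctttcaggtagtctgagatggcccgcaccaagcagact
H2BC10: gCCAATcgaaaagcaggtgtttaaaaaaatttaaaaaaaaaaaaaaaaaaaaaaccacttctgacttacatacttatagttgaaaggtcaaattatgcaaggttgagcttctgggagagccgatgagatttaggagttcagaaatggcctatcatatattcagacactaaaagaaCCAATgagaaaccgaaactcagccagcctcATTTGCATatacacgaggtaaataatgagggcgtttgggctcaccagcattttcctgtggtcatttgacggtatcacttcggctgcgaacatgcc
H2BC12: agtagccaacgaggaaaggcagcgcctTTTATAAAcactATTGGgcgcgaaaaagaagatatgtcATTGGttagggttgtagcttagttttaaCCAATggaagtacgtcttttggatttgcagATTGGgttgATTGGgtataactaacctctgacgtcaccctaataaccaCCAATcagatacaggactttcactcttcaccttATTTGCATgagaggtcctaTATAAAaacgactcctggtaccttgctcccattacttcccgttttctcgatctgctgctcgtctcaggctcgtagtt
A promoter window was found for 51 of the 56 members. The octamer ATTTGCAT was in 10 of 13 H2A and 13 of 16 H2B windows and in 0 of the H1, H3 and H4 windows, against 1.80% of all 27305 promoters. AAACACA was in 5 of 5 H1 windows and 1 of 13 H2A windows, against 5.76% of all. CCAAT was in every H1, H2A, H2B and H3 window and 3 of 11 H4 windows, against 35.7% of all, and TATAAA in 34 of 51, against 12% of all. The E2F letters TTTGGCGC were in 0 of 51 windows and TTTCCCGC in 1, against 0.659% and 1.66% of all. H2BC10, which fell, and H2BC12, which did not pass the test, both hold the octamer and CCAAT.

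In total lysate, histone RNA was lower after each of the 4 related microRNAs miR-103 and miR-107, miR-16 and miR-195. Of the 38 tested members 33 fell with miR-103 (8.88% of all genes tested were called lower), 34 with miR-107 (8.35% of all), 33 with miR-16 (7.45%) and 33 with miR-195 (7.22%). In the same 4 comparisons 0 members rose, where 8.37%, 6.51%, 9.56% and 6.82% of all genes were called higher. The median member changed by -1.05 with miR-103, -1.23 with miR-107, -0.90 with miR-16 and -1.0 with miR-195, while the median over all genes tested was 0.03, 0.01, 0.05 and 0.01. The 8 comparisons with the negative control use the same 3 control arrays. Fewer cells in S phase and less histone RNA in each cell cannot be told apart in these bulk samples. Of 6 tested neuronal markers 1 rose in each of the 4 comparisons, and of 6 tested glial markers 2 rose with miR-103, 1 with miR-107, 1 with miR-16 and 0 with miR-195, while 0 fell by limma. The part of these in the histone changes was not tested.

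The H3 genes, which encode the core histone H3, fell most as a class: all 5 tested members fell in each of the 4 comparisons, and the median of their mean changes over the 4 was -1.74. H3C8 was at 7.24, 7.99 and 7.47 with miR-103, at 7.25, 7.48 and 7.39 with miR-107, at 7.67, 8.04 and 7.47 with miR-16 and at 7.95, 7.58 and 7.69 with miR-195, against 9.47, 9.78 and 9.42 with the negative control. None of these 12 arrays reached the control range. The changes were -1.99 ± 0.19 (adjusted p = 1.4e-07), -2.18 ± 0.19 (4.54-fold lower, adjusted p = 3.6e-08), -1.83 ± 0.19 (adjusted p = 6.1e-07) and -1.82 ± 0.19 (adjusted p = 6.6e-07) in the same order (limma). H3C12 was at 7.26, 7.94 and 7.50 with miR-103 and 7.36, 7.27 and 7.40 with miR-107, against 9.67, 9.50 and 9.39 with the negative control, changes of -1.95 ± 0.24 and -2.17 ± 0.24. With miR-16 and miR-195 it changed by -1.48 ± 0.24 and -1.54 ± 0.24. H3C10 had the smallest mean change of the class, -1.11, and its change was -1.44 ± 0.15 with miR-107 and -0.83 ± 0.15 with miR-195 (limma adjusted p = 6e-07 and 0.0005).

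All 4 tested H1 genes fell in each of the 4 comparisons. H1-5, a linker histone, was at 7.50, 8.89 and 8.13 with miR-103, 8.13, 8.36 and 7.89 with miR-107, 8.78, 9.26 and 8.31 with miR-16 and 8.66, 8.48 and 8.70 with miR-195, against 10.55, 10.41 and 10.12 with the negative control. Replicate 2 of miR-103 and of miR-16, arrays that stood apart, lay nearest to the control, and the groups did not overlap. The changes were -2.19 ± 0.31, -2.23 ± 0.31 (4.70-fold lower, limma adjusted p = 1.8e-05), -1.57 ± 0.31 and -1.74 ± 0.31. H1-2 averaged a change of -1.21 over the 4. H1-4 had the smallest change of its class and was at 13.21, 13.17 and 13.23 with miR-107, against 13.76, 13.70 and 13.71 with the negative control, a change of -0.52 ± 0.09 (adjusted p = 0.0002, limma). The groups did not overlap here either.

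Of the 10 tested H2A genes 9 fell in each comparison, with a median of the mean changes of -1.32. H2AC15 was at 9.39, 10.34 and 8.76 with miR-103, 9.47, 9.75 and 9.66 with miR-107, 9.59, 10.66 and 8.51 with miR-16 and 9.86, 9.42 and 9.84 with miR-195, against 11.26, 11.31 and 11.10 with the negative control. The groups did not overlap, though the miR-103 and miR-16 arrays spread widely, and the changes ran from -1.73 ± 0.40 for miR-103 to -1.52 ± 0.40 for miR-195 (limma adjusted p = 0.0036 and 0.01). H2AC13 changed by -1.60 ± 0.29, -1.73 ± 0.29, -1.33 ± 0.29 and -1.39 ± 0.29 with miR-103 and miR-107, miR-16 and miR-195. The exception was H2AC25, on chromosome 1, which was at 7.55, 6.81 and 7.19 with miR-107, against 7.95, 7.42 and 7.31 with the negative control. Its groups overlapped and its changes, -0.03 to -0.37, did not pass the test in any of the 4.

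Of the 11 tested H2B genes 9 fell with miR-103, miR-107 and miR-16 and 8 with miR-195. H2BC10 was at 6.45, 7.51 and 6.47 with miR-103, 6.86, 6.87 and 6.82 with miR-107, 6.71, 7.65 and 6.11 with miR-16 and 7.20, 6.21 and 6.70 with miR-195, against 8.60, 8.24 and 8.43 with the negative control. Every one of the 12 arrays lay below the controls, with changes of -1.57 ± 0.34 (miR-107) to -1.71 ± 0.34 (miR-195, limma adjusted p = 0.00086). H2BC9 changed by -1.24 ± 0.26 with miR-103 and by -1.02 ± 0.26 with miR-16. H2BC12 was at 12.75, 12.99 and 12.79 with miR-103, 12.77, 12.81 and 12.89 with miR-107, 12.85, 12.80 and 12.87 with miR-16 and 12.66, 12.91 and 13.06 with miR-195, against 12.83, 13.03 and 12.82 with the negative control. All of these groups overlapped the control, and its changes were -0.02 to -0.07 ± 0.12 (adjusted p = 0.77 to 0.96, limma). H2BC14 passed the test with miR-107 (-0.91 ± 0.24) and miR-16 (-0.74 ± 0.24) and was at -0.67 and -0.60 with miR-103 and miR-195. H2BC13 passed with miR-103 alone of the 4 (-0.64 ± 0.22, limma adjusted p = 0.0497), with overlap of the arrays, and lay between -0.45 and -0.64 in the others. The other members named above as having polyadenylated messages too passed in all 4 comparisons, with mean changes of -1.21 for H1-2, -0.79 for H2AC6, -0.80 for H2BC5 and -0.93 for H2BC21.

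The H4 genes fell least as a class, with a median of the mean changes of -0.70: of 8 tested 6 fell with miR-103 and miR-16 and 7 with miR-107 and miR-195. H4C14 was at 11.73, 11.84 and 11.66 with miR-107, against 13.12, 13.27 and 13.04 with the negative control, and H4C2 at 12.24, 11.77 and 12.11, against 13.27, 13.04 and 13.03. Neither gene's groups overlapped, and the changes were -1.40 ± 0.25 and -1.07 ± 0.20 (limma adjusted p = 0.00027 and 0.00057). H4C1 passed with miR-107, miR-16 and miR-195 (-0.63 to -0.78) and was at -0.52 with miR-103. H4C16, the member on chromosome 12, passed with miR-103, miR-107 and miR-195 (-0.41 to -0.50) and was at -0.24 with miR-16. H4C5 was at 11.95, 11.77 and 11.73 with miR-107, against 12.31, 12.02 and 11.97 with the negative control, and its changes of -0.10 to -0.28 passed the test in none. Classes were not tested against each other. By position, the median of the mean changes was -1.12 over the 31 tested members on chromosome 6 and -1.05 over the 6 on chromosome 1.

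**Figure D1:**
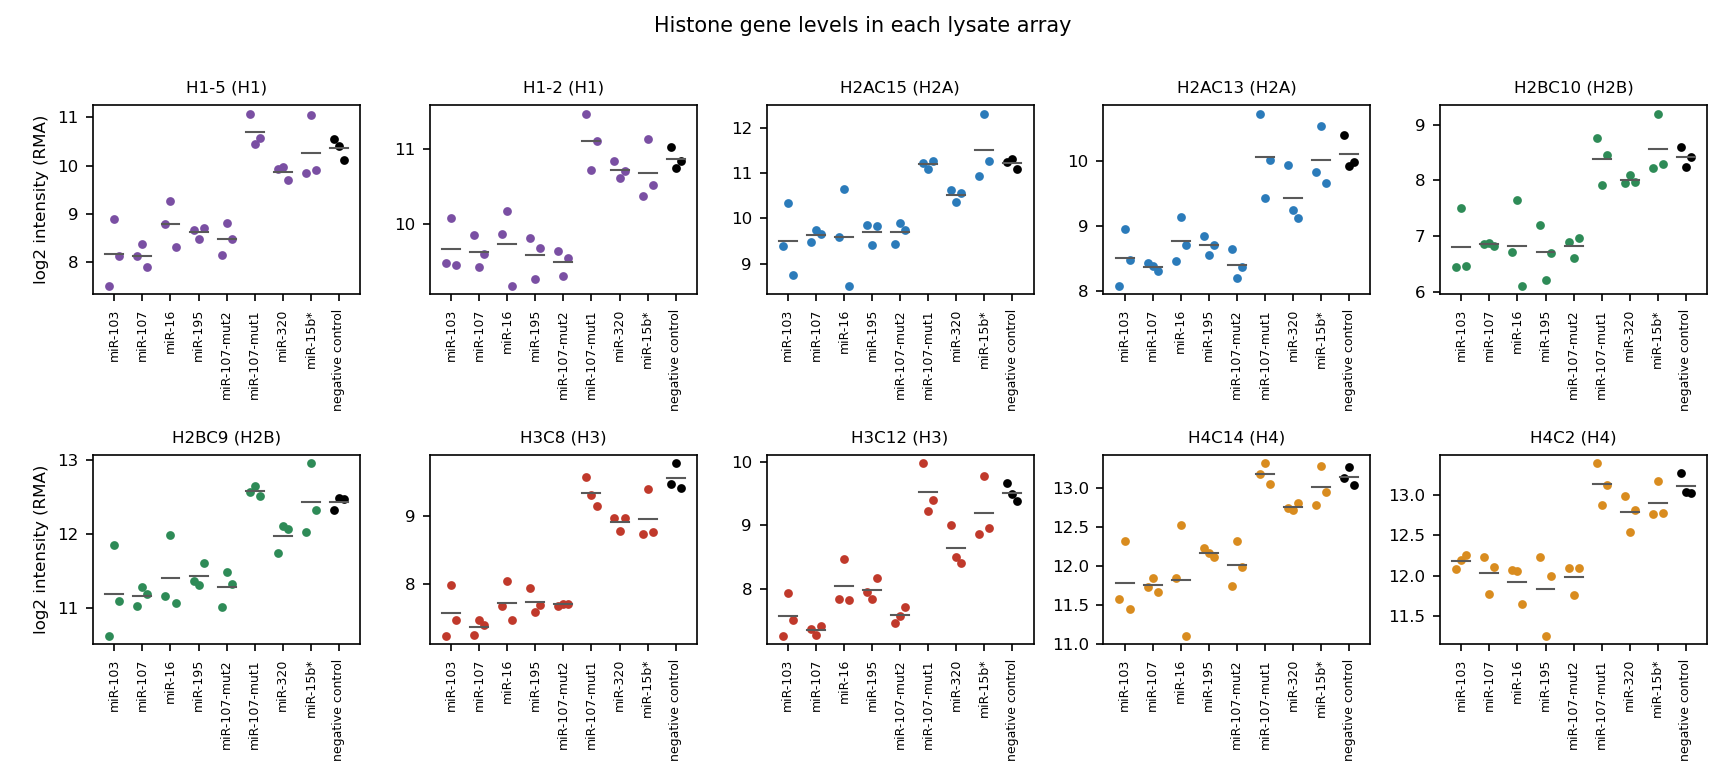
Log2 intensity of 10 histone genes (the 2 of each class with the largest mean change) in each lysate array, by transfection, with the negative control in black at the right and grey bars for means of 3 arrays. The miR-103, miR-107, miR-16, miR-195 and miR-107-mut2 arrays lie below the control arrays in every panel, while miR-107-mut1, miR-320 and miR-15b* lie nearer to them.

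The labels give replicates of equal number a common code. Within each number the median member difference from the control was -1.35, -0.67 and -1.10 for miR-103 (replicates 1, 2 and 3), -1.25, -1.22 and -1.17 for miR-107, -1.12, -0.62 and -1.20 for miR-16 and -1.04, -1.11 and -0.96 for miR-195. The 2 smallest values come from arrays that stood apart, whose median over all genes tested was shifted by 0.15 (miR-103) and 0.21 (miR-16) from the control of that number. Without the 3 lysate arrays that stood apart 35, 35, 34 and 35 members fell with miR-103 and miR-107, miR-16 and miR-195, a fit whose shares of all genes are not given here.

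miR-320 and miR-15b* left nearly all members short of the threshold. With miR-320 1 of 38 fell (1.5% of all genes were called lower and 1.46% higher), H3C12, at 9.01, 8.50 and 8.40, against 9.67, 9.50 and 9.39 with the negative control. The groups did not overlap and the change was -0.88 ± 0.24 (limma adjusted p = 0.043). The median member was at -0.34 with miR-320, and 37 of the 38 differences were below 0. The miR-320 call was lost without the level filter and on leaving out any 1 of the arrays compared other than miR-320 replicate 1, whereas 9 members fell without the arrays that stood apart, none of which is a miR-320 or control array, and 20 fell with array weights. With miR-15b* 1 of 38 fell (4.04% of all lower and 3.5% higher), H4C8, at 11.21, 11.20 and 11.24, against 11.59, 11.76 and 11.57 with the negative control, a change of -0.43 ± 0.13 (limma adjusted p = 0.046). The miR-15b* replicates disagreed: the median member difference was -0.37 and -0.21 in replicates 1 and 3 and 0.30 in replicate 2, the array that stood apart, where the median over all genes was shifted by 0.24. The miR-15b* call was lost on leaving out any 1 of the arrays compared other than miR-15b* replicate 2. Without the arrays that stood apart 4 members fell with miR-15b*, and 24 were called with array weights, 23 of them lower. The shares of all genes called in these other fits are not given here, so their counts are not read as particular to histone genes.

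The 2 altered forms of miR-107 differed in their counts. With miR-107-mut2 33 of 38 members fell (7.58% of all genes were called lower and 6.23% higher), with a median of -1.15, close in size to the median of -1.23 with miR-107. With miR-107-mut1 1 of 38 fell (5.44% of all lower and 3.33% higher), H3C10, at 9.84, 9.33 and 9.64, against 10.36, 10.33 and 10.06 with the negative control. Its groups did not overlap and it changed by -0.65 ± 0.15 (limma adjusted p = 0.0081). The median member was at 0.03 with miR-107-mut1. Without miR-107-mut1 replicate 2 the H3C10 call was lost and 1 member was called higher in its place, and against the mean of the negative control, miR-320 and miR-15b* 2 members were called higher and 0 lower.

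Set directly against each other, miR-107 lay below miR-107-mut1 in 32 of 38 members (6.51% of all genes were called lower and 6.96% higher), with a median difference of -1.13 and a largest difference of -2.58 ± 0.31 for H1-5. H1-5 was at 8.13, 8.36 and 7.89 with miR-107, against 11.08, 10.45 and 10.58 with miR-107-mut1, without overlap (limma adjusted p = 3.6e-06). H3C12 differed by -2.19 ± 0.24 and H3C8 by -1.97 ± 0.19. The 6 members that did not pass were H2AC25, H2BC12, H2BC13, H2BC14, H4C5 and H4C16. Between miR-107 and miR-107-mut2 0 of 38 members passed (0.0543% of all genes were called lower and 0.0271% higher by limma), and 2 members had an unadjusted p under 0.05. For H1-5, miR-107-mut2 arrays were at 8.15, 8.82 and 8.48, which overlap the miR-107 arrays. The differences ran from -0.35 to 0.41, and 37 of the 38 95% intervals lay within a log2 difference of 1 either way, the whole set spanning -1.0 to 0.84. These intervals leave room for differences smaller than that.

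**Figure D2:**
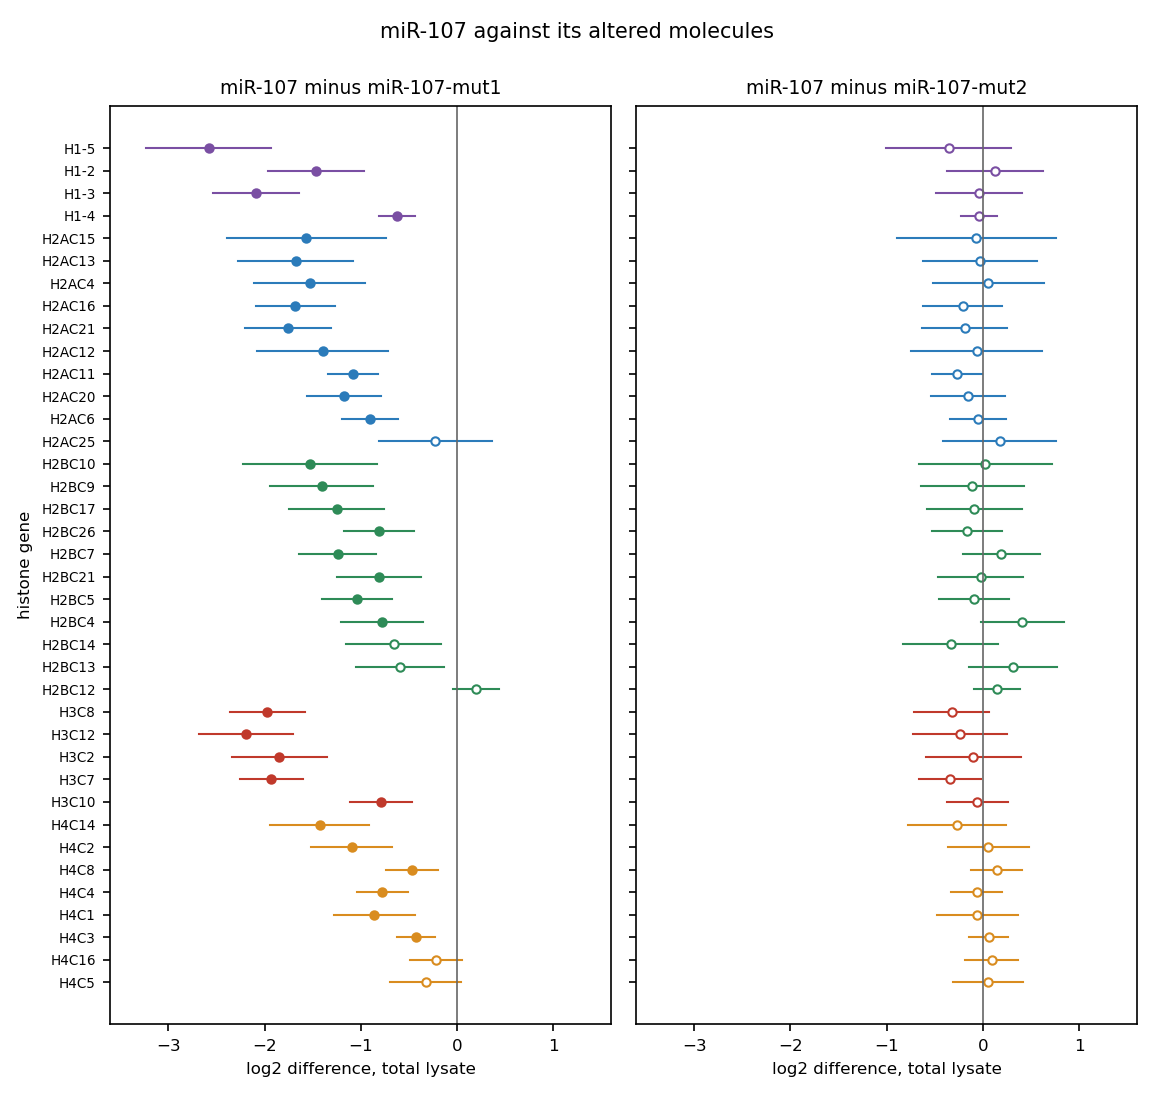
Log2 difference in total lysate of miR-107 minus miR-107-mut1 (left) and minus miR-107-mut2 (right) for the 38 tested members, with 95% intervals, coloured by class. Filled points were called, 32 on the left and 0 on the right, where the differences lie between -0.35 and 0.41.

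Among these 4 microRNAs, miR-103 and miR-107 pooled were lower than miR-16 and miR-195 pooled for 2 of 38 members (6.47% of all genes were called lower and 3.57% higher), both H3 genes. This count was near that over all genes, so it is not read as particular to histone genes. H3C10 was at 8.49, 9.26 and 9.04 with miR-103 and 8.95, 8.72 and 8.76 with miR-107, against 9.27, 9.57 and 9.35 with miR-16 and 9.32, 9.50 and 9.44 with miR-195. The highest miR-103 array lay just under the lowest miR-16 array, and the difference was -0.54 ± 0.11 (limma adjusted p = 0.0018). H3C12 differed by -0.56 ± 0.17 (adjusted p = 0.035, limma), with overlap of the arrays. The count was 4 lower and 1 higher without the arrays that stood apart. Between miR-103 and miR-107 and between miR-16 and miR-195 0 of 38 members passed (0% of all genes in either direction by limma), with 1 and 0 members at an unadjusted p under 0.05. The differences ran from -0.18 to 0.48 between miR-103 and miR-107 and from -0.35 to 0.32 between miR-16 and miR-195, and all 38 intervals of each lay within a log2 difference of 1.

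In the Argonaute IP the same transfections gave lower histone signals, with a wider spread between arrays. Of the 38 members 17 fell with miR-103 (1.79% of all genes were called lower), 17 with miR-107 (3.61%), 13 with miR-16 (1.12%), 10 with miR-195 (0.615%) and 9 with miR-107-mut2 (0.317%), and 0 rose (0.235%, 0.217%, 0.136%, 0.0543% and 0.0271% of all called higher). Median changes were -1.39, -1.38, -1.25, -1.27 and -1.26, beside -0.09, -0.19, -0.08, -0.07 and -0.04 over all genes tested. With the replicate number as a block 28, 29, 21, 22 and 20 members fell, where 6.73%, 15.9%, 4.85%, 3.31% and 1.3% of all genes were called lower. The IP values were scaled apart from the lysate values, so the sizes of their log2 changes are not on 1 scale with those of the lysates.

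H2BC7, a core histone H2B gene, was at 5.52, 5.95 and 6.45 in the IP with miR-103, 5.92, 5.09 and 6.38 with miR-107, 6.42, 6.79 and 6.40 with miR-16, 6.49, 5.52 and 6.56 with miR-195 and 6.0, 5.16 and 6.61 with miR-107-mut2, against 8.49, 8.69 and 9.26 with the negative control. All 15 arrays lay below the lowest control array. The changes were -2.84 ± 0.53, -3.02 ± 0.53 (limma adjusted p = 0.0021), -2.28 ± 0.53, -2.62 ± 0.53 and -2.89 ± 0.53. H3C2 changed by -2.92 ± 0.57 with miR-103, -2.49 ± 0.57 with miR-107, -2.71 ± 0.57 with miR-16 and -2.63 ± 0.57 with miR-195. With miR-107-mut2 it was at -2.36 ± 0.57, short of the threshold (limma adjusted p = 0.084).

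H4C14 was at 5.71, 5.71 and 7.20 in the IP with miR-103 and 6.81, 5.20 and 7.62 with miR-107, against 8.85, 9.26 and 10.15 with the negative control. Replicate 3 was the highest in each of these groups and the groups did not overlap. It changed by -3.22 ± 0.64 with miR-103, the largest called change of a member in the IP, by -2.88 ± 0.64 with miR-107 and by -2.61 ± 0.64 with miR-16, and was at -2.22 and -2.81 without a call with miR-195 and miR-107-mut2. H2AC21 changed by -2.58 ± 0.42, -2.18 ± 0.42, -2.38 ± 0.42, -2.15 ± 0.42 and -2.12 ± 0.42 with miR-103, miR-107, miR-16, miR-195 and miR-107-mut2. H3C8 fell in the same 5, by 2.12 with miR-103, 2.17 with miR-107, 2.01 with miR-16, 1.74 with miR-195 and 2.21 with miR-107-mut2. H3C10 changed by -1.84 to -2.14 in the 5, and H2AC15 was called with miR-103, miR-107 and miR-107-mut2. H3C8 and H3C10 had means over both fractions of 6.03 and 6.23 and passed the level filter through their lysate values. The part of low IP levels in their IP changes was not tested.

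**Figure D3:**
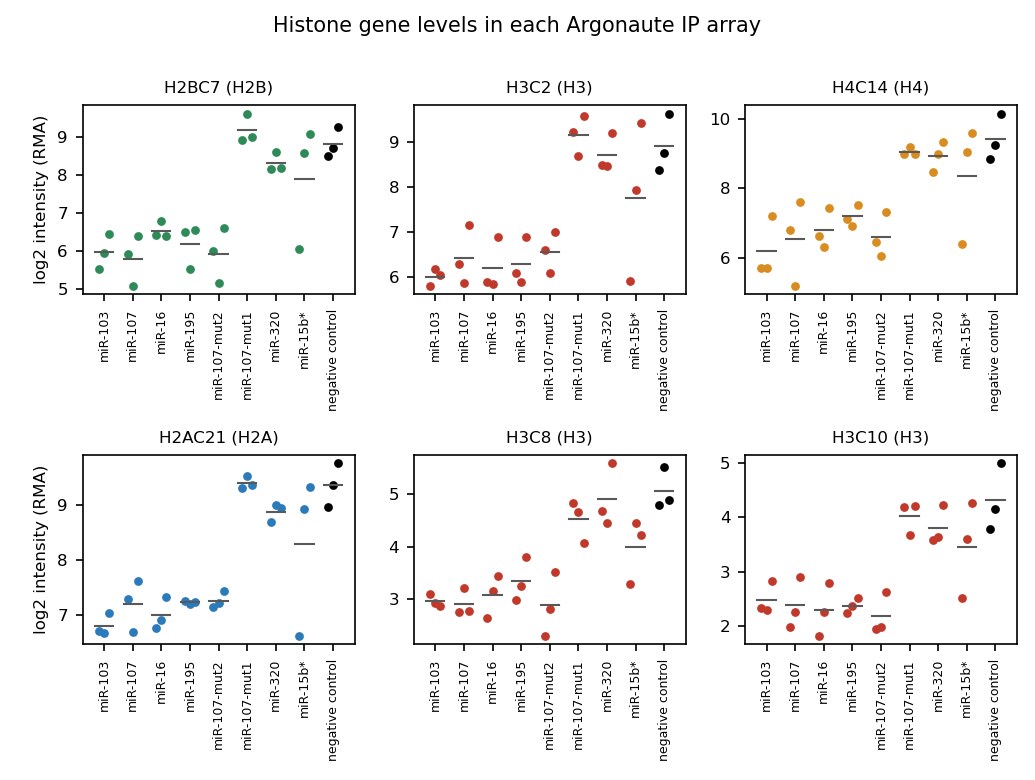
Log2 intensity of 6 histone genes with the largest called changes in each Argonaute IP array, by transfection, with the negative control in black at the right and grey bars for means of 3 arrays. miR-15b* replicate 1 lies with the miR-103, miR-107, miR-16, miR-195 and miR-107-mut2 arrays, and control replicate 3 is the highest control in all panels but that of H3C8.

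The IP counts of miR-103, miR-107, miR-16, miR-195 and miR-107-mut2 fell whichever 1 of the arrays compared was left out. They were then at most 13, 15, 10, 9 and 6. The part of the smaller group size in this was not tested. Without control replicate 3 the counts fell to 3 (miR-103), 5 (miR-107), 2 (miR-16), 1 (miR-195) and 1 (miR-107-mut2). Leaving out replicate 1 or 2 of miR-103 left 6 each, replicate 2 of miR-107 8, replicates 1 and 2 of miR-16 3 and 4 and replicates 1 and 2 of miR-195 4 and 2. Leaving out replicates 1, 2 and 3 of miR-107-mut2 left 2, 1 and 4, and without control replicate 1 there were 6 for miR-16 and 5 for miR-107-mut2. The shares of all genes called in these fits are not given here, so the losses are not read as particular to histone genes. Within replicate numbers, the median member difference of these 5 transfections ran from -1.63 to -0.87.

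With miR-320, miR-15b* and miR-107-mut1 0 members passed in the IP (0.0905%, 0.208% and 0.163% of all genes were called lower by limma, and 2.12%, 0.00905% and 0.579% higher), with 2, 10 and 2 members at an unadjusted p under 0.05. Replicate 1 of miR-15b*, which stood apart, had a median member difference of -1.19 from the control of its number, against -0.34 and -0.12 in replicates 2 and 3, and its median over all genes was -0.43. H2AC21 was at 6.62 in that array and at 8.93 and 9.33 in the other 2, beside 8.97, 9.38 and 9.77 with the negative control. Without replicate 3 of miR-15b* 14 members were called lower, and without replicate 1 0 were, fits whose shares of all genes are not given here. The replicate block called 3 members lower with miR-15b* (4.62% of all genes), 1 lower with miR-320 (0.244%) and 1 higher with miR-107-mut1 (1.04%).

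miR-107 against miR-107-mut1 gave 26 lower members of 38 in the IP (4.86% of all genes were called lower and 0.19% higher), with a median difference of -1.57 beside -0.21 over all genes. H3C7 had the largest difference, at 6.53, 5.91 and 6.91 with miR-107, against 9.56, 9.43 and 10.69 with miR-107-mut1, without overlap (-3.45 ± 0.91, limma adjusted p = 0.029). H2BC7 differed by -3.37 ± 0.53. Leaving out 1 array gave 14 to 25, with 14 without miR-107 replicate 2 or miR-107-mut1 replicate 3, 16 without miR-107-mut1 replicate 2 and 17 without miR-107 replicate 1. miR-107 against miR-107-mut2 gave 0 calls (0% of all genes lower and 0.0362% higher by limma, 0 members at an unadjusted p under 0.05), and 21 of the 38 intervals lay within a log2 difference of 1. The pooled miR-103 and miR-107 against the pooled miR-16 and miR-195 gave 0 calls too (0.172% of all lower and 0.208% higher by limma), with 1 member at an unadjusted p under 0.05.

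**Figure D4:**
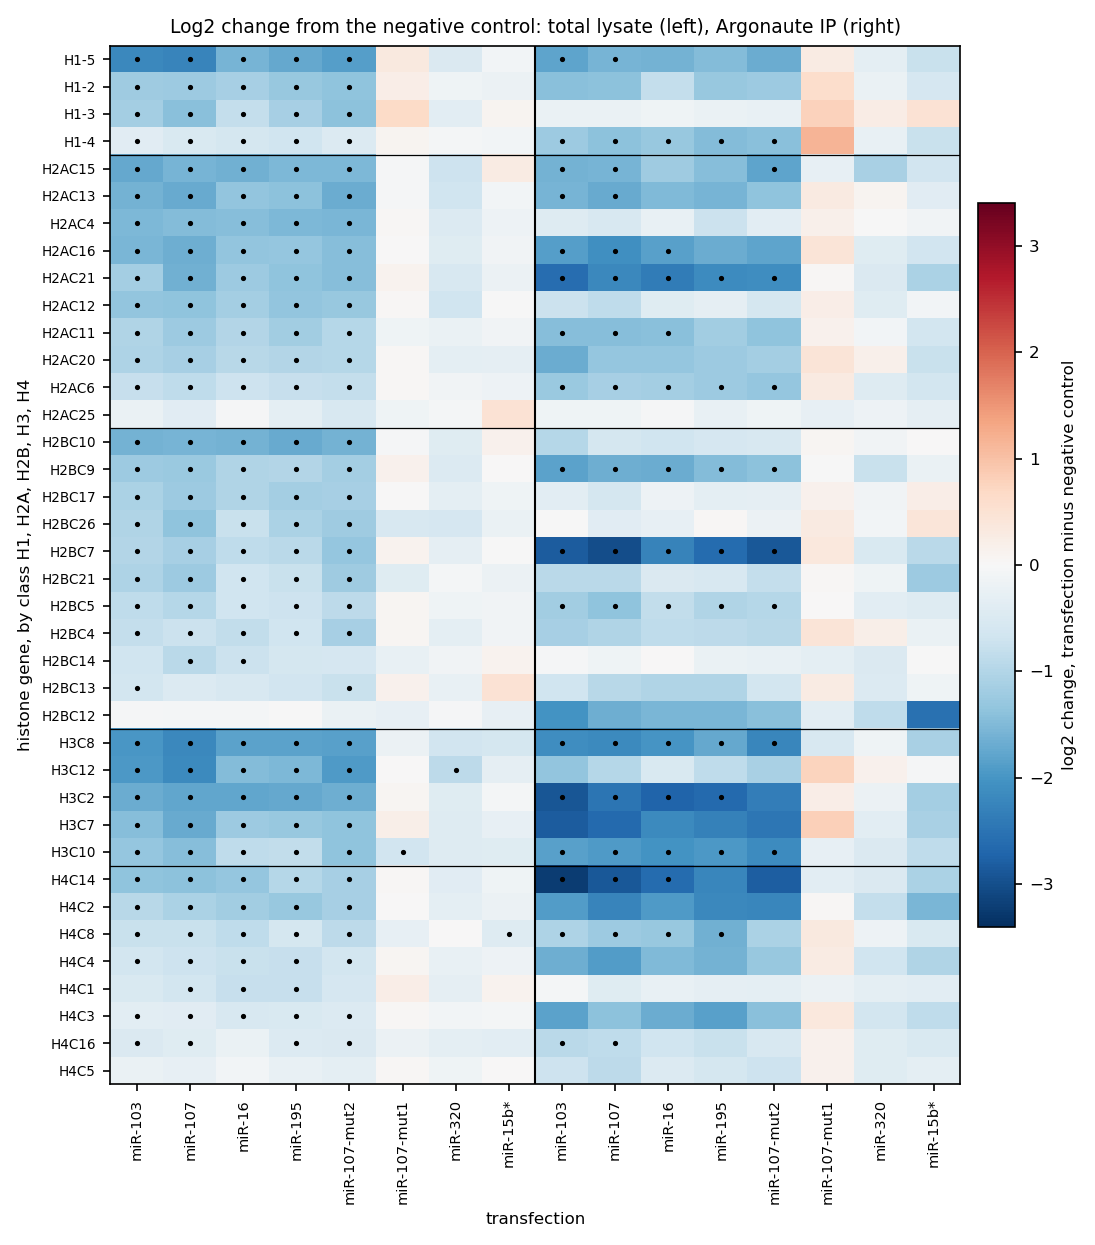
Log2 change from the negative control of the 38 tested histone genes (grouped by class, largest mean lysate change at the top of each class) after 8 transfections, in total lysate at the left and Argonaute IP at the right, with a dot where a gene was called. The 5 left columns of each panel are blue for most genes, and H2BC12 is pale in lysate and blue in the IP.

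The control IP was set against the control lysate after cyclic loess over all 54 arrays. H2AC13 (1.57 ± 0.26), H2BC7 (1.30 ± 0.29), H1-4 (1.26 ± 0.24), H2AC21 (1.21 ± 0.24) and H2BC14 (1.03 ± 0.25) led the 12 members higher in the IP (38.5% of all genes were called higher). H2AC4 (-1.98 ± 0.34), H3C10 (-1.75 ± 0.25), H1-3 (-1.35 ± 0.23), H2BC5 (-1.30 ± 0.19) and H2AC12 (-1.27 ± 0.33) led the 9 lower ones (37.5% of all called lower). Both shares of members lie below those of all genes. On the deposited values all 38 were lower in the IP, in step with the median of -4.20 over all genes, so the direction of these 12 rests on the loess step.

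An interaction term compared the change in the IP with that in the lysate for miR-103 and miR-107 together, on the deposited values. The fractions were scaled apart, and the part of that in the term was not tested beyond a rerun after cyclic loess. For H1-3, a linker histone, the IP arrays were at 3.97, 3.88 and 4.30 with miR-103 and 3.99, 4.24 and 3.89 with miR-107, against 4.14, 4.17 and 4.48 with the negative control, whereas the lysate changes were -1.16 ± 0.22 and -1.43 ± 0.22. The term was 1.08 ± 0.29 (limma adjusted p = 0.014), and that of H2BC26 was 1.00 ± 0.24 (limma adjusted p = 0.0068). Over the 27 IP arrays H1-3 lay between 3.76 and 5.66 and H2BC26 between 2.70 and 3.94, beside IP array means of 3.61 to 3.65, and both passed the level filter, which uses the mean over both fractions, through their lysate values. Whether a fall in the IP could be measured at such levels was not tested.  The term was called above 0 for these 2 genes (1.69% of all genes), which by itself is not a rise in the IP. It was called below 0 for 3 members (4.85% of all). H2BC12 was at 6.35, 6.58 and 5.76 in the IP with miR-103 and 6.70, 6.65 and 6.51 with miR-107, against 8.18, 8.14 and 8.50 with the negative control, without overlap. Its own IP changes, -2.04 ± 0.55 and -1.65 ± 0.55, were short of the threshold (limma adjusted p = 0.054 and 0.088), and the term was -1.78 ± 0.50 (limma adjusted p = 0.021). H2BC7 had a term of -1.87 ± 0.50 and H1-4 of -0.86 ± 0.26. After cyclic loess H1-3 and H2BC26 passed and the other 3 did not, H1-4 turning to 0.34. Without control IP replicate 3 none of H2BC7, H2BC12 and H1-4 passed (adjusted p = 0.081, 0.076 and 0.15, limma), and 3 members were called higher and 0 lower. Without control lysate replicate 1 there was 1 higher and 1 lower, H1-3 and H2BC12 being lost (limma adjusted p = 0.06 and 0.052) along with H1-4, and without control lysate replicate 3 2 were higher and 1 lower. For miR-16 and miR-195 0 members passed (2.07% of all genes lower and 0.842% higher by limma), with 14 at an unadjusted p under 0.05. The terms of the same 5 genes kept their signs there, short of the threshold (limma adjusted p = 0.067 to 0.15). They were 0.78 for H1-3, 0.79 for H2BC26, -1.57 for H2BC7, -1.52 for H2BC12 and -0.75 for H1-4. The terms of the 2 pairs were not tested against each other.

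Genes around the histone messages were described from 4 lists in lysate. Of 24 tested genes of histone mRNA processing and transcription 5, 3, 2 and 3 fell with miR-103 and miR-107, miR-16 and miR-195 and 0 rose, with medians of -0.28, -0.09, -0.21 and -0.07. These are 20.8%, 12.5%, 8.33% and 12.5% of the list, beside 8.88%, 8.35%, 7.45% and 7.22% of all genes, so the count with miR-16 was near that over all genes. Of these CCNA2, the S phase cyclin A, was at 7.85, 8.17 and 8.66 with miR-103, against 9.95, 10.43 and 10.38 with the negative control, without overlap, and changed by -1.97 on average over the 4. CDK2, the kinase that activates NPAT, changed by -1.04 on average, and MIF4GD, a partner of SLBP, fell with miR-103 (-0.93 ± 0.18) and miR-107 (-1.15 ± 0.18) and was at -0.08 and -0.26 with miR-16 and miR-195. SLBP itself was at 9.93, 10.03 and 9.96 with miR-107, against 10.03, 10.17 and 9.96 with the negative control, and its changes of -0.08 to -0.18 ± 0.10 did not pass. NPAT lay between -0.32 and 0.26 and LSM10, a U7 subunit, between -0.10 and 0.01, without a call. LSM11 and CASP8AP2 were below the level filter.

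Of 22 tested histone chaperones and assembly factors 9, 10, 10 and 9 fell with miR-103 and miR-107, miR-16 and miR-195, 8 with miR-107-mut2 and 1 with miR-107-mut1. In the same order 8.88%, 8.35%, 7.45%, 7.22%, 7.58% and 5.44% of all genes were called lower. The miR-107-mut1 count was thus near that over all genes. ASF1B, which hands H3 and H4 on for assembly, was at 8.13, 8.62 and 8.45 with miR-103, 8.09, 8.24 and 8.03 with miR-107, 9.33, 9.65 and 9.01 with miR-16 and 9.46, 9.17 and 9.43 with miR-195, against 11.18, 11.43 and 11.42 with the negative control. No group overlapped the control, and ASF1B also fell with miR-107-mut2 (-2.60 ± 0.22), miR-320 (-0.87 ± 0.22) and miR-15b* (-0.88 ± 0.22), while with miR-107-mut1 it was at 0.07 ± 0.22. HJURP, the chaperone of the centromeric histone, changed by -1.98 on average over the 4 and MCM2, a helicase subunit that also binds histones, by -1.24. IPO4, an importin that carries histones, rose with miR-15b* (0.63 ± 0.19). It was at 9.93, 10.68 and 9.89 there, against 9.59, 9.44 and 9.56 with the negative control. The highest value is from replicate 2, the miR-15b* lysate array that stood apart.

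Of 9 tested replication-independent variants, whose messages are polyadenylated or not tied to S phase, 3, 2, 3 and 4 fell with miR-103 and miR-107, miR-16 and miR-195. Of all genes 8.88%, 8.35%, 7.45% and 7.22% were called lower in these comparisons. H2AX, whose gene gives both kinds of message, was at 9.35, 9.58 and 9.42 with miR-107, against 10.51, 10.55 and 10.63 with the negative control, without overlap (-1.12 ± 0.24, limma adjusted p = 0.0016), and at -0.99 ± 0.24 with miR-107-mut2 and 0.07 ± 0.24 with miR-107-mut1. H2AZ1 changed by -0.82 and H2AZ2 by -0.56 on average over the 4. H2AZ1 also fell with miR-15b* (-0.86 ± 0.18, limma adjusted p = 0.0044), by more than with miR-103 or miR-107 (-0.54 each). It fell with miR-107-mut2 (-0.57 ± 0.18) and was not called with miR-320 (-0.15) or miR-107-mut1 (-0.21). Of 29 tested DNA replication genes, a list that shares MCM2 with the chaperones, 27, 28, 27 and 26 fell with miR-103 and miR-107, miR-16 and miR-195, 27 with miR-107-mut2 and 1 with miR-107-mut1, where 1 rose. With miR-107-mut2 7.58% of all genes were called lower. With miR-107-mut1 5.44% were called lower and 3.33% higher, so its counts in this list were near those over all genes. TK1, GINS2 and GINS1 led it with mean changes of -2.27, -1.99 and -1.99. In the IP 4, 8, 0, 1 and 1 of these 29 fell with miR-103, miR-107, miR-16, miR-195 and miR-107-mut2, beside the 17, 17, 13, 10 and 9 of 38 histone members, and this difference between the lists was not tested. Of all genes 1.79%, 3.61%, 1.12%, 0.615% and 0.317% were called lower in these IP comparisons.

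**Figure D5:**
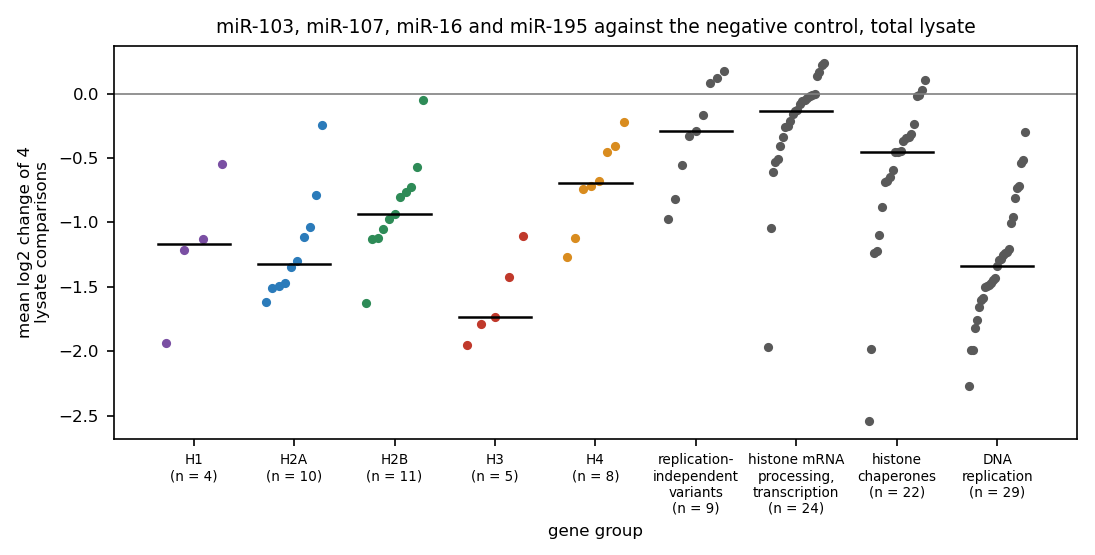
Mean log2 change over the lysate comparisons of miR-103 and miR-107, miR-16 and miR-195 with the negative control, 1 point per tested gene, by histone class and for 4 related gene lists, with bars for medians. H3 genes have the lowest median of the histone classes (-1.74) and H4 genes the highest (-0.70).

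The 17 members under the filter were H1-1, H2AC1, H2AC8, H2AC14, H2AC17, H2BC1, H2BC3, H2BC6, H2BC8, H2BC11, H3C1, H3C3, H3C11, H4C6, H4C7, H4C9 and H4C13. The nearest outside it had means over all arrays of 5.10 (H3C3), 5.17 (H2BC11) and 5.21 (H2AC17), and the nearest inside of 5.36 (H2BC26), 5.63 (H4C16) and 5.66 (H2AC25). When tested among all 18417 genes without a filter, 6, 8, 7, 7 and 7 of these 17 fell in lysate with miR-103, miR-107, miR-16, miR-195 and miR-107-mut2, 1 with miR-15b* and 0 with miR-320 and miR-107-mut1. The shares of all genes called lower in that fit were 7.8%, 6.72%, 6.17%, 5.7% and 6.16%, and 3.62%, 1.08% and 3.56% for miR-15b*, miR-320 and miR-107-mut1. In the comparisons within the IP 0 of the 17 were called by limma, while 6 were higher and 5 lower in the control IP than in the control lysate (36.3% and 34% of all) and 2 had a higher term in each interaction (2.7% of all for miR-103 with miR-107 and 1.62% for miR-16 with miR-195).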

How the data were processed

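Values were deposited by the authors as 1 table of log2 intensities for 54 arrays, which the submitters' processing notes say came from RMA in Affymetrix Expression Console 1.1. The log base is not stated and log2 was assumed, which bears on every fold. Kit and antibody are per the labels' protocols.

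Of 33297 probe sets the 19460 with 1 symbol were used, the one with the highest mean for the 769 genes with several. Each fraction (27 arrays, 9 groups of 3) was fitted with limma 3.58.1 in R 4.3.3 (moderated tests, Benjamini-Hochberg adjustment), and interactions on all 54 arrays. Genes named are, per class, the 2 largest and 1 smallest mean changes, members called in some comparisons only, at most 5 called per other comparison and direction, 3 per related list, and SLBP, NPAT, CASP8AP2, LSM10, LSM11, ASF1B and H2AX. Members and lists were chosen with earlier results of these data known. H3C7, H3C12 and H2BC12 values in some comparisons and the promoters shown were picked after values were seen.

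Same-numbered replicates share a code in the labels' descriptions. The mean correlation of their deviations was 0.27 for IP arrays (-0.15 to 0.67, 84 of 108 pairs above 0.1) and 0.31 for lysates (-0.47 to 0.95, 79 of 108), against -0.13 and -0.14 between other numbers, so a replicate block was an alternative. Others were no filter, a 60% filter, cyclic loess, array weights, another probe set choice, only the arrays compared, the mean of 3 controls, each array left out, and, chosen after seeing the data, leaving out arrays with an outlying mean correlation. The fits were tested on simulated data. No array duplicated another (highest correlation 0.9947). Precision is limited by there being 3 arrays per group.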

Additional observations from a re-analysis of the deposited data

Results flagged for a closer look

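For miR-103 and miR-107 together, 5 of 38 tested histone genes had a change in the Argonaute IP that differed from that in total lysate by a test of the difference (limma interaction, adjusted over 11050 genes). The difference was called above 0 for 2 of them (1.69% of all genes) and below 0 for 3 (4.85% of all). The IP change minus the lysate change was 1.08 for H1-3 (SE 0.29, adjusted p = 0.014) and 1.00 for H2BC26 (SE 0.24, adjusted p = 0.0068). It was -1.87 for H2BC7 (SE 0.50, adjusted p = 0.016), -1.78 for H2BC12 (SE 0.50, adjusted p = 0.021) and -0.86 for H1-4 (SE 0.26, adjusted p = 0.031). After cyclic loess the values were 1.27 for H1-3 and 0.87 for H2BC26, still past the threshold, and -1.09 for H2BC7, -0.89 for H2BC12 and 0.34 for H1-4, not past it. The fractions differ in scale, and the part of that in these terms was not tested beyond the loess alternative. Leaving out 1 array gave 2 to 7 calls, fits whose shares of all genes are not given here. Without control IP replicate 3 the values of H2BC7, H2BC12 and H1-4 were -1.64, -1.67 and -0.74, none past the threshold. Without control lysate replicate 1 H1-3, H2BC12 and H1-4 were at 0.97, -1.75 and -0.88, none past the threshold. The call of H2BC12 was also lost without control lysate replicate 3. That of H1-4 was also lost without control lysate replicate 2 or 3, miR-103 IP replicate 1 or miR-107 IP replicate 2. H2BC26 was called in every setting run except the 60% filter, which left it out. Over the 27 IP arrays H1-3 lay between 3.76 and 5.66 and H2BC26 between 2.70 and 3.94, beside array means of 3.61 to 3.65. Both passed the level filter through their lysate values. Whether a fall could be measured at such IP levels was not tested, and the settings run do not bear on it. For miR-16 and miR-195 the values had the same signs, none past the threshold. They were 0.78 for H1-3, 0.79 for H2BC26, -1.57 for H2BC7, -1.52 for H2BC12 and -0.75 for H1-4. The 2 pairs of microRNAs were not tested against each other here.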

How the results depend on the processing

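In lysate the counts for miR-103, miR-107, miR-16, miR-195, miR-107-mut2 and miR-107 against miR-107-mut1 stayed within 1.5 times of those reported under all alternatives run, with 28 to 34 members when 1 array was left out. The replicate block changed these counts: lysate miR-320, miR-15b* and miR-107-mut1 2 each, IP miR-103 28, miR-107 29, miR-16 21, miR-195 22, miR-107-mut2 20, miR-15b* 3, miR-320 1 and miR-107-mut1 1. Array weights, whose estimation stopped short of its tolerance in both fractions, gave, in lysate, miR-320 20, miR-15b* 24, miR-107-mut1 10, the pooled contrast 25, miR-107 against miR-107-mut2 1, miR-16 against miR-195 22 and miR-103 against miR-107 1, and in the IP miR-103 28, miR-16 22, miR-195 21, miR-107-mut2 19 and miR-107-mut1 3. Cyclic loess gave lysate miR-15b* 3 and miR-107-mut1 3, IP miR-320 1, miR-15b* 1 and miR-107-mut2 16, and 2 and 1 for the interactions of miR-103 with miR-107 and miR-16 with miR-195. Without a filter miR-320 lysate had 0 and the interactions 7 and 2. A 60% filter gave 2 for miR-107-mut1 lysate and 1 for miR-15b* IP. Only the arrays compared gave lysate miR-320 6, miR-15b* 0 and miR-107-mut1 2, and IP miR-195 4. The mean of 3 controls gave 2 higher for miR-107-mut1 lysate, a turned direction, and 1 for its IP. Without arrays that stood apart the counts were, in lysate, miR-320 9, miR-15b* 4, miR-107-mut1 3 and the pooled contrast 5, and in the IP miR-195 18, miR-107-mut2 14 and miR-107-mut1 1.

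Leaving out 1 array gave 3 to 13 (miR-103), 5 to 15 (miR-107), 2 to 10 (miR-16), 1 to 9 (miR-195), 1 to 6 (miR-107-mut2), 0 to 14 (miR-15b*) and 0 to 1 (miR-107-mut1) in the IP and 14 to 25 for miR-107 against miR-107-mut1. It gave 0 to 1 (miR-320 and miR-15b*), 1 to 2 (miR-107-mut1) and 1 to 4 (the pooled contrast) in lysate, 17 to 23 for control IP against lysate, and 2 to 7 and 0 to 3 for the interactions. Without miR-107-mut1 replicate 2 its lysate count turned to 1 higher, without control IP replicate 3 the control IP had 9 higher and 11 lower and the miR-103 and miR-107 interaction 3 higher and 0 lower, and without control lysate replicate 3 the interaction had 2 higher and 1 lower. On deposited values all 38 members were lower in the control IP, among them H1-4 -2.33, H2AC11 -3.46, H2AC13 -2.74, H2AC21 -2.90, H2AC25 -3.50, H2BC14 -3.08, H2BC17 -3.17, H2BC4 -3.57, H2BC7 -2.91, H2BC9 -3.36, H4C16 -3.52 and H4C4 -3.06, all higher after loess. H1-4's interaction turned to 0.34 after loess. Counts in this section are of members alone, and the shares of all genes called under each setting are not given with them. The cause of these moves was not tested.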
